A study of Mus musculus with 18 samples.

Results

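This section describes 6 genes of the cytotoxic granule in whole lungs of mice: the granzyme genes Gzma, Gzmb and Gzmk, the perforin gene Prf1, the granule membrane protein gene Nkg7 and the cathepsin W gene Ctsw. They were chosen by name, with earlier results of these data known, and all 6 were measured. The choice was from among 18193 genes that had at least 1 probe set assigned to a single gene. Where a gene had more than 1 single-gene probe set, the brightest on average over all 18 arrays was used. This concerned Prf1 alone, and the average included the arrays of the groups compared.

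The study measured lung RNA of a mouse model of allergic asthma and its response to resiquimod (also called S-28463 or R-848), a small molecule that activates Toll-like receptor 7. All animals were males of 16 weeks, of the strains A/J or C57BL/6, and all had been sensitized with ovalbumin in alum by 3 weekly intraperitoneal injections. Starting 7 days later, the resiquimod groups inhaled 1% ovalbumin for 30 min on 3 consecutive days and received 100 µg of resiquimod intraperitoneally, also on 3 consecutive days, the first dose 24 h before the first aerosol. The ovalbumin groups inhaled ovalbumin without resiquimod, and the PBS groups, sensitized like the others, inhaled PBS only. There were thus 6 groups of 3 arrays, each array labelled as a biological replicate. No group received resiquimod without ovalbumin, the labels list no vehicle injection for the ovalbumin and PBS groups, and they do not give the interval between the last challenge and lung collection.

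Cytotoxic granules are the killing organelles of natural killer (NK) cells and cytotoxic T cells. When they fuse with the surface facing a target cell, perforin opens pores in the target membrane and granzymes, a family of serine proteases, pass into the target and cleave its proteins. Blood-derived NK cells are a regular part of the mouse lung, and they carry transcripts of most of these genes before any challenge, whereas naive CD8 T cells begin to express them after activation.

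Expression values are log2 values, so a difference of 1 is a doubling, and every comparison used limma over all probe sets with p-values adjusted by the Benjamini-Hochberg method. A gene is called changed at an adjusted p under 0.05. The middle of all values lay at 4.78 and 25% of them under 3.33. The 7 whole lung markers averaged between 11.2 and 11.4 in every array, and arrays of the same group correlated at 0.987 to 0.997 over all probe sets. Transcripts of squamous mucosa (Krt13, Krt4 and Krtdap) were at 9.97 to 12.3 in 8 arrays and at 2.97 to 5.48 in the other 10, with 1 such array in each resiquimod group, 2 of 3 in A/J ovalbumin, 1 in C57BL/6 ovalbumin, 1 in A/J PBS and 2 of 3 in C57BL/6 PBS. The C57BL/6 PBS arrays also stood apart in Nnt, a mitochondrial transhydrogenase gene known to carry a deletion in some C57BL/6 substrains: its mean was 8.34 in C57BL/6 resiquimod and 8.40 in C57BL/6 ovalbumin arrays, against 7.07 ± 0.19 (SD, n = 3) in C57BL/6 PBS arrays. In comparisons with that PBS group, challenge and origin of the animals therefore cannot be told apart.

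Resiquimod given with ovalbumin raised 4 of the granule genes to among the largest differences on the array. Against ovalbumin alone, 5 of the 6 were called higher in A/J lungs (all but Gzmk) and 6 of 6 in C57BL/6 lungs, while 4.38% of all genes were called higher in A/J and 5.8% in C57BL/6 (5.39% and 4.6% were called lower). The median difference of the 6 was 3.09 in A/J and 3.47 in C57BL/6 on the log2 scale, where the median of all genes lay at -0.003 and -0.02. Ranked by their difference among the 18193 genes, Gzma, Gzmb, Prf1 and Nkg7 took places 1, 2, 3 and 6 in A/J and places 4, 2, 5 and 8 in C57BL/6, and Ctsw took places 44 and 20. Since the members were chosen with earlier results of these data known, these counts and places are a description. In RNA of a whole lung, more cells of a type and more RNA per cell cannot be told apart.

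**Figure D1:**
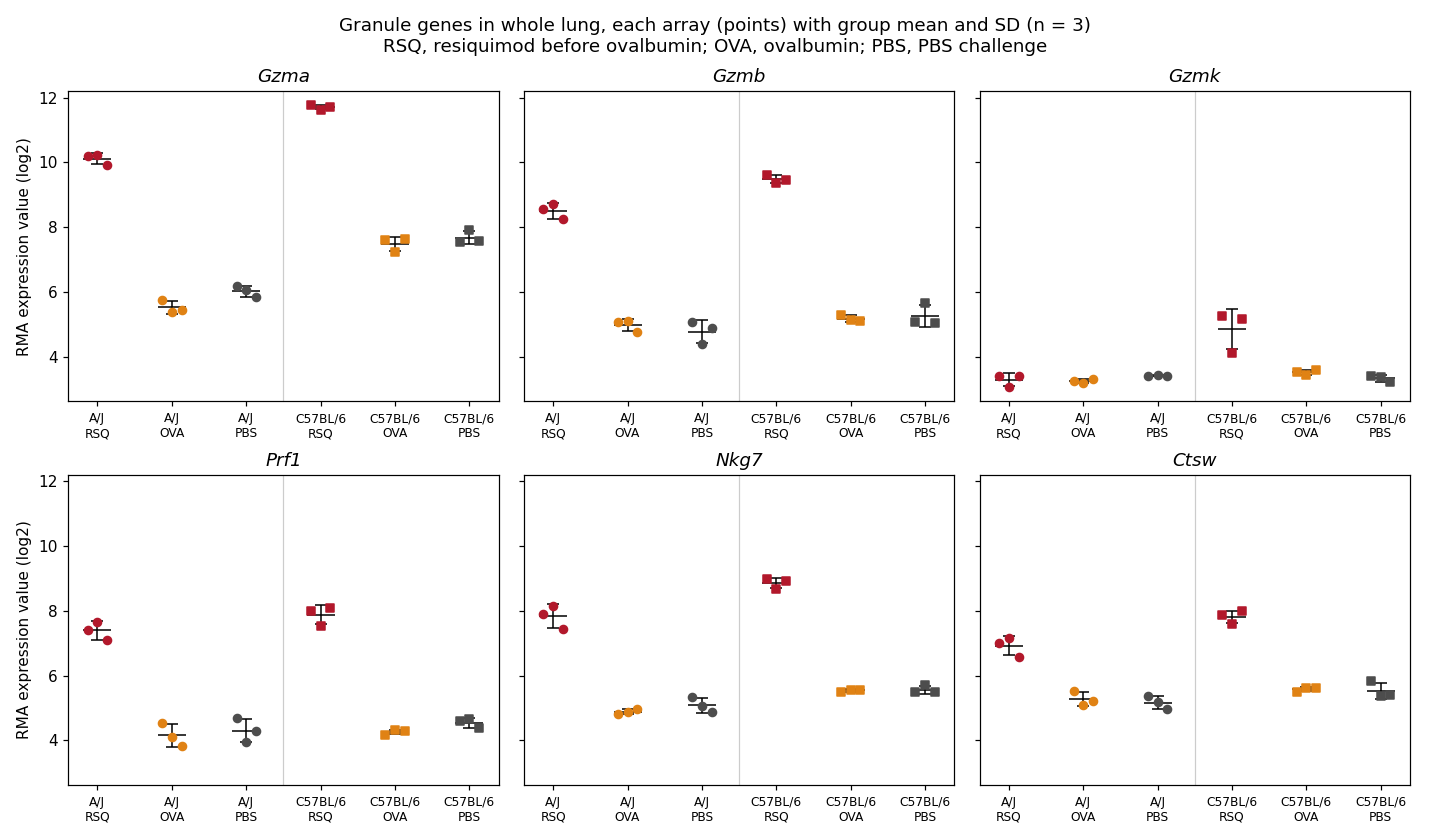
Expression values (log2, vertical axis, the same scale in each panel) of the 6 granule genes in every array, with the group mean and SD (n = 3 arrays a group). Circles are A/J and squares C57BL/6 arrays; RSQ stands for resiquimod with ovalbumin and OVA for ovalbumin. In 5 genes every resiquimod array lies above every other array of its strain, and Gzmk does so in C57BL/6 alone. The share of all genes with such a separation was not computed. Heights are not comparable between genes, since each has its own probes.

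Gzma encodes granzyme A, a trypsin-like protease that is abundant in resting NK cells. Its values were 10.19, 10.22 and 9.92 in the A/J resiquimod arrays, against 5.74, 5.38 and 5.45 in the A/J ovalbumin arrays. In C57BL/6 they were 11.76, 11.63 and 11.72 with resiquimod, against 7.59, 7.23 and 7.63 with ovalbumin alone. In both strains the 3 resiquimod arrays were far above the others and the groups did not overlap. The difference was 4.59 ± 0.13 (SE) in A/J, a 24.1-fold increase and the largest in that strain (adjusted p = 4.31e-12), and 4.22 ± 0.13 in C57BL/6, or 18.6-fold (adjusted p = 5.04e-12). Gzma was also the member with the clearest order over all 6 groups: C57BL/6 resiquimod (11.70) was highest, followed by A/J resiquimod (10.11), C57BL/6 PBS (7.67), C57BL/6 ovalbumin (7.48), A/J PBS (6.03) and A/J ovalbumin (5.52). Of these neighbours, only the ranges of the C57BL/6 PBS and ovalbumin arrays overlapped.

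Gzmb encodes granzyme B, which cleaves after aspartate and activates caspases in the target cell. The A/J resiquimod arrays had 8.55, 8.71 and 8.24, against 5.07, 5.11 and 4.76 in the A/J ovalbumin arrays. In C57BL/6, resiquimod arrays had 9.62, 9.36 and 9.47, against 5.30, 5.13 and 5.11 in ovalbumin arrays. No resiquimod array came within 3 log2 units of an ovalbumin array of its strain. The difference was 3.52 ± 0.18 in A/J (11.5-fold, adjusted p = 6.83e-09) and 4.31 ± 0.18 in C57BL/6 (19.8-fold, adjusted p = 2.82e-10). The other 4 groups lay between 4.78 and 5.26 on average, and each overlapped its neighbour in that order.

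Prf1 encodes perforin, the pore-forming protein through which granzymes reach the cytosol of the target. It stood at 7.42, 7.67 and 7.11 in A/J resiquimod arrays, against 4.53, 4.12 and 3.83 in A/J ovalbumin arrays. In C57BL/6 it stood at 8.0, 7.55 and 8.10 with resiquimod, against 4.18, 4.31 and 4.28 with ovalbumin alone. The resiquimod arrays again lay apart from the ovalbumin arrays in both strains, with differences of 3.24 ± 0.20 in A/J (9.44-fold, adjusted p = 3.72e-08) and 3.63 ± 0.20 in C57BL/6 (12.3-fold, adjusted p = 7.48e-09). Between the strains the resiquimod arrays of Prf1 overlapped in the probe set used, which holds for no other member. The second Prf1 probe set went another way: it averaged 4.28 in A/J resiquimod and 4.36 in A/J ovalbumin arrays, a difference of -0.08 ± 0.11 (adjusted p = 0.772), and 3.95 in C57BL/6 resiquimod and 4.31 in C57BL/6 ovalbumin arrays, a difference of -0.37 ± 0.11 (adjusted p = 0.0444). All its values lay between 3.87 and 4.46, under the middle of all values, and the 2 probe sets of Prf1 thus disagree. The set used was chosen by its mean over all 18 arrays (5.43, against 4.23), resiquimod arrays included. In ovalbumin arrays the second set was the brighter, at 4.36 against 4.16 in A/J and 4.31 against 4.26 in C57BL/6. The Prf1 differences and places given here are those of the set so chosen.

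Nkg7 encodes a small membrane protein of the granule that takes part in granule release. Its values were 7.90, 8.16 and 7.44 in A/J resiquimod arrays, against 4.83, 4.86 and 4.97 in A/J ovalbumin arrays, and 8.98, 8.68 and 8.91 in C57BL/6 resiquimod arrays, against 5.50, 5.57 and 5.57 in C57BL/6 ovalbumin arrays. The groups did not overlap. Nkg7 was higher by 2.95 ± 0.15 in A/J (7.71-fold, adjusted p = 5.98e-09) and by 3.31 ± 0.15 in C57BL/6 (9.91-fold, adjusted p = 5.01e-10).

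Ctsw encodes cathepsin W, a papain-family cysteine protease made mainly by NK and CD8 T cells. It measured 7.02, 7.17 and 6.59 in A/J resiquimod arrays, against 5.53, 5.10 and 5.23 in A/J ovalbumin arrays. In C57BL/6 it measured 7.86, 7.61 and 7.98 with resiquimod, against 5.50, 5.63 and 5.62 with ovalbumin alone. Every resiquimod array was above every ovalbumin array, but by less than in the genes above: the difference was 1.64 ± 0.16 in A/J (3.12-fold, adjusted p = 6.42e-06) and 2.23 ± 0.16 in C57BL/6 (4.69-fold, adjusted p = 2.09e-07).

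Gzmk encodes granzyme K, a trypsin-like protease like granzyme A, known from memory CD8 T cells and other lymphocytes. In A/J it stayed at the dim end of the array, with 3.40, 3.06 and 3.41 in resiquimod arrays, against 3.25, 3.18 and 3.32 in ovalbumin arrays. In C57BL/6 it had 5.25, 4.13 and 5.16 with resiquimod, against 3.52, 3.44 and 3.59 with ovalbumin alone. The A/J groups overlapped and differed by 0.04 ± 0.20 (adjusted p = 0.950), whereas the C57BL/6 groups lay apart, with a difference of 1.33 ± 0.20 (2.51-fold, adjusted p = 0.000375). One C57BL/6 resiquimod array, at 4.13, was more than 1 log2 unit below the other two. Over the 6 groups only C57BL/6 resiquimod (4.85 ± 0.62, SD) stood well above the rest, which averaged between 3.25 and 3.52.

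**Figure D2:**
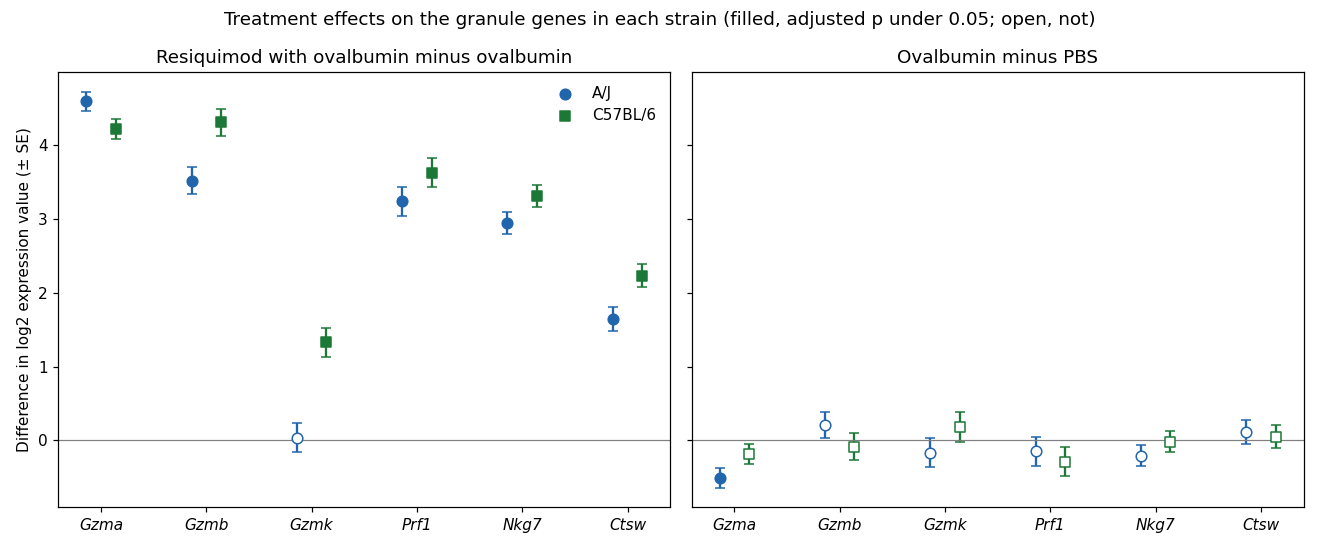
Differences (log2, ± SE from the limma fit) of the 6 granule genes between resiquimod with ovalbumin and ovalbumin (left) and between ovalbumin and PBS (right), in A/J (circles) and C57BL/6 (squares). Filled symbols have an adjusted p under 0.05. Resiquimod differences run from 0.04 for Gzmk in A/J to 4.59 for Gzma in A/J, while the ovalbumin differences lie between -0.51 and 0.21.

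Gzma and Gzmk are neighbours on chromosome 13 and yet had different patterns, so their promoters are shown, beside those of Gzmb on chromosome 14 and Nkg7 on chromosome 7, which rose with Gzma. RefSeq promoter entries (build GRCm38.p6, 250 bases before to 50 after the start) matched 5 of the 6 members by symbol. The capitals mark the letters GGTGTGA, the core bound by T-box factors such as T-bet and Eomes, and TGTGGT, the core bound by RUNX factors, on either strand (TCACACC and ACCACA on the strand shown where the match is on the other one).
Gzma, chr13:113100932-113101231 (minus strand): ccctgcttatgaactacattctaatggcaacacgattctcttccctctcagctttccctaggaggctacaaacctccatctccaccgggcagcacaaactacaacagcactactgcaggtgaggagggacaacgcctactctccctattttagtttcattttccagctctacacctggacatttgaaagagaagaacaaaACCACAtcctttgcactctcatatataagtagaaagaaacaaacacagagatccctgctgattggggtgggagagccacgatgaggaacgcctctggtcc
Gzmk, chr13:113180916-113181215 (minus strand): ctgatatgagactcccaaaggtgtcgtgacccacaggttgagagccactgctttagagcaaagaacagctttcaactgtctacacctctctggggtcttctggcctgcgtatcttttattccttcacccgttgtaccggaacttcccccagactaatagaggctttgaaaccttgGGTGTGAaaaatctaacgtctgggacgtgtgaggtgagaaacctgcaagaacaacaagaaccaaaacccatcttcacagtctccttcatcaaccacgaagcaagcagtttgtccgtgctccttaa
Gzmb, chr14:56262285-56262584 (minus strand): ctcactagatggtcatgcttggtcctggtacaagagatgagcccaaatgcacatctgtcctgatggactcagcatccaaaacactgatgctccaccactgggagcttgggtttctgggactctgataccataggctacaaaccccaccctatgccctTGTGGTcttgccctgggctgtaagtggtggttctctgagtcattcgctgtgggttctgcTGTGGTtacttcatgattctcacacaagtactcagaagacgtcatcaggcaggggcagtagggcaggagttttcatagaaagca
Nkg7, chr7:43436888-43437187 (plus strand): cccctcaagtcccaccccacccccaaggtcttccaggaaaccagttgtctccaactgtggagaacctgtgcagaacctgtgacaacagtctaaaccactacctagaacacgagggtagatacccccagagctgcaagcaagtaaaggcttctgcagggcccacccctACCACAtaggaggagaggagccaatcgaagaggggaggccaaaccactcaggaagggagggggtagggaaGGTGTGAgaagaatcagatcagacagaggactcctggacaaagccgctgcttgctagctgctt

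The T-box letters occurred in the promoters of Gzmk and Nkg7, beginning 75 and 13 bases before the start, and in 3.98% of 32851 promoters in all. The RUNX letters occurred in 4 of the 5 promoters (Gzma, Gzmb, Nkg7 and Prf1, with 2 matches in Gzmb), and in 16.8% of all promoters. Gzmk alone had no RUNX match in this window. The AP-1 letters TGANTCA were found in Gzmb only (7.81% of all promoters), the STAT letters TTCNNNGAA in Gzmb and Nkg7 (8.30%) and the ETS letters AGGAAG in Nkg7 and Prf1 (35.4%). These matches describe the letters and not binding.

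Apart from Gzma and Gzmk themselves, no measured gene within 2 places of a granzyme gene on its chromosome was called higher. Gpx8, the gene on the other side of Gzma, was lower with resiquimod in A/J (-0.28 ± 0.07, adjusted p = 0.0168), and Esm1, the gene beyond Gzmk, was lower in C57BL/6 (-0.71 ± 0.21, adjusted p = 0.0452). Gzmc, which lies next to Gzmb in the same granzyme cluster, differed by 0.24 ± 0.12 in A/J (adjusted p = 0.298) and by 0.21 ± 0.12 in C57BL/6 (adjusted p = 0.374). None of the 7 other granzyme genes measured (Gzmc to Gzmg, Gzmm and Gzmn) was called in either strain, and none had an unadjusted p under 0.05 in limma. Their mean level stayed between 2.85 and 2.98 in A/J resiquimod arrays and 2.81 and 2.93 in A/J ovalbumin arrays, and between 2.91 and 2.98 in C57BL/6 resiquimod arrays and 2.90 and 3.05 in C57BL/6 ovalbumin arrays. These means lay under 3.33, at the dim end of the arrays, where a difference may go undetected.

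Ovalbumin challenge alone gave no granule gene called higher than with PBS. In A/J, 1 of 6 was called, Gzma, and it was lower: 5.74, 5.38 and 5.45 in ovalbumin arrays, against 6.18, 6.06 and 5.84 in PBS arrays, which did not overlap (-0.51 ± 0.13, 1.42-fold, adjusted p = 0.0494). In the same comparison 4.38% of all genes were called in either direction. The Gzma call was marginal, since it was kept in 5 and lost in 13 of the 18 fits that each left out 1 array (-0.62 to -0.43, adjusted p 0.0324 to 0.187), and it was lost without the arrays with squamous transcripts (-0.57, adjusted p = 0.454). Gzmb differed by 0.21 ± 0.18, Nkg7 by -0.20 ± 0.15, Gzmk by -0.17 ± 0.20, Prf1 by -0.15 ± 0.20 and Ctsw by 0.11 ± 0.16, none of them called. In C57BL/6, limma called 0 of 6 members and 0 had an unadjusted p under 0.05, beside 1.59% of all genes called, with differences from -0.29 ± 0.20 for Prf1 to 0.18 ± 0.20 for Gzmk. The difference between the strains in the ovalbumin effect was called for 0 of 6 members, none at an unadjusted p under 0.05, and for 0.0605% of all genes.

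Against the PBS arrays the resiquimod arrays showed the same members called. In A/J 5 of 6 were higher (5.86% of all genes were): Gzma by 4.08 ± 0.13, Gzmb by 3.72 ± 0.18, Prf1 by 3.09 ± 0.20, Nkg7 by 2.74 ± 0.15 and Ctsw by 1.76 ± 0.16, while Gzmk differed by -0.13 ± 0.20. In C57BL/6 6 of 6 were higher (9.61% of all genes were), from 1.51 ± 0.20 for Gzmk to 4.22 ± 0.18 for Gzmb. These comparisons share their resiquimod arrays with those against ovalbumin. The adjusted p of the members called was at most 2.85e-06 in A/J (Ctsw) and 6.13e-05 in C57BL/6 (Gzmk).

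Of the 6 genes, Gzma had the largest estimated difference between the strains at every challenge. In the PBS groups A/J arrays had 6.18, 6.06 and 5.84, against 7.53, 7.90 and 7.58 in C57BL/6 arrays, a difference of -1.64 ± 0.13 (3.12-fold lower in A/J, adjusted p = 2.28e-07). With ovalbumin the difference was -1.96 ± 0.13 (adjusted p = 2.60e-08), and with resiquimod -1.59 ± 0.13 (adjusted p = 3.11e-07). At none of the 3 challenges did the Gzma arrays of the strains overlap. Hybridisation of A/J transcripts to these probes was not tested.

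Most calls between the strains came from the resiquimod arrays. In PBS arrays Gzma was the only member called (4.56% of all genes were called lower in A/J), and the next, Nkg7, had 5.34, 5.07 and 4.87 in A/J, against 5.49, 5.71 and 5.49 in C57BL/6 (-0.47 ± 0.15, adjusted p = 0.0587). In ovalbumin arrays 2 of 6 were called lower in A/J, where 4.98% of all genes were: Gzma and Nkg7 (-0.66 ± 0.15, adjusted p = 0.00722, but 0.218 without the arrays with squamous transcripts). In resiquimod arrays 5 of 6 were lower in A/J, with 8.92% of all genes: Gzma, Gzmk by -1.56 ± 0.20 (adjusted p = 3.26e-05), Nkg7 by -1.02 ± 0.15 (adjusted p = 0.000114), Gzmb by -0.98 ± 0.18 (adjusted p = 0.00104) and Ctsw by -0.89 ± 0.16 (adjusted p = 0.000909). In these 5 genes no A/J resiquimod array reached the lowest C57BL/6 resiquimod array. The share of all genes whose arrays lay apart in this way was not computed. Prf1 differed by -0.48 ± 0.20 and was not called (adjusted p = 0.130). Its second, dim probe set was called in the other direction, higher in A/J by 0.34 ± 0.11 (adjusted p = 0.0453).

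**Figure D3:**
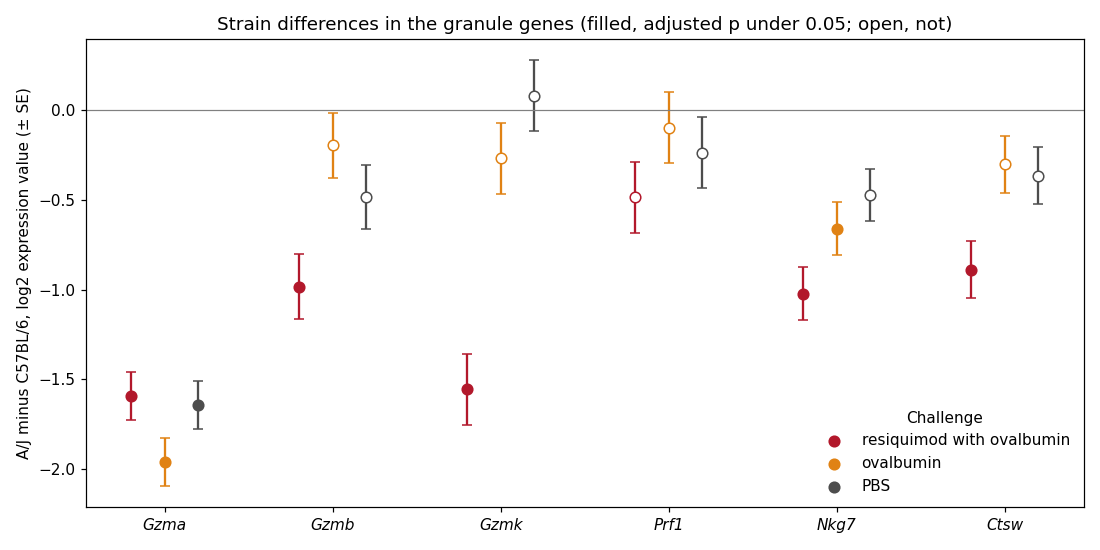
Differences between A/J and C57BL/6 (A/J minus C57BL/6, log2, ± SE from the limma fit) of the 6 granule genes under resiquimod with ovalbumin, ovalbumin and PBS. Filled symbols have an adjusted p under 0.05. Gzma lies between -1.96 and -1.59 at all 3 challenges, whereas Gzmk lies at -1.56 with resiquimod and at -0.27 and 0.08 with ovalbumin and PBS.

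Whether resiquimod acted differently in the strains was tested as the difference of the 2 resiquimod effects, each against ovalbumin. It was called for 1 of 6 members, Gzmk, with -1.29 ± 0.28 (A/J minus C57BL/6, adjusted p = 0.0402), beside 1.24% of all genes called in either direction. For Gzmb it was -0.79 ± 0.25 (adjusted p = 0.168), for Ctsw -0.59 ± 0.23 (adjusted p = 0.262), for Prf1 -0.39 ± 0.28 (adjusted p = 0.607), for Nkg7 -0.36 ± 0.21 (adjusted p = 0.489) and for Gzma 0.37 ± 0.19 (adjusted p = 0.424). Gzma was thus the one member with the larger estimate in A/J. All A/J values of Gzmk lay between 3.06 and 3.44, at the dim end of the arrays, where a difference may go undetected. Over the 18 fits without 1 array, the Gzmk difference ran from -1.65 to -1.09 (adjusted p 2.96e-05 to 0.103). The Gzmk call was kept in 2 of them, those without A/J resiquimod replicate 1 and without C57BL/6 resiquimod replicate 2. It was lost in 16. It was also lost without the arrays with squamous transcripts (-1.63 ± 0.20, adjusted p = 0.0778) and without the C57BL/6 PBS arrays (-1.29 ± 0.30, adjusted p = 0.0711).

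All other member counts under resiquimod were the same in every fit without 1 array and in the fits without the arrays with squamous transcripts or without the C57BL/6 PBS arrays: 5 and 6 members were higher than with ovalbumin in A/J and C57BL/6, and 5 were lower in A/J than in C57BL/6 resiquimod arrays. Calls over all genes fell in the fit without the squamous arrays. In that fit 1 A/J ovalbumin array and 1 C57BL/6 PBS array were left, and each was taken to vary like the others. Gzma then differed by 4.70 ± 0.19 in A/J (adjusted p = 8.12e-05) and Gzmk by 1.69 ± 0.13 in C57BL/6 (adjusted p = 0.000580). Differences between 3′ and 5′ probe sets, a sign of RNA integrity, were 0.395 to 0.568 for actin in A/J resiquimod and 0.371 to 0.384 in A/J ovalbumin arrays, and 0.337 to 0.449 in C57BL/6 resiquimod and 0.419 to 0.671 in C57BL/6 ovalbumin arrays. For Gapdh they were -0.0627 to 0.1003 in A/J resiquimod and 0.0131 to 0.0862 in A/J ovalbumin arrays, and 0.0082 to 0.0980 in C57BL/6 resiquimod and 0.0361 to 0.556 in C57BL/6 ovalbumin arrays, with C57BL/6 ovalbumin replicate 2 the highest of all arrays in both. Their part in the granule gene differences was not tested.

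Markers of NK cells moved with the granule genes. Of 9 listed, 7 were measured, and 7 of 7 were called higher with resiquimod in both strains (median difference 1.22 in A/J and 2.36 in C57BL/6, against -0.003 and -0.02 over all genes), though without the squamous arrays 4 of 7 were called in A/J and 7 of 7 in C57BL/6. Their mean level was 6.54 to 6.99 in A/J resiquimod arrays and 5.32 to 5.45 in A/J ovalbumin arrays, and 7.61 to 7.87 in C57BL/6 resiquimod arrays and 5.68 to 5.81 in C57BL/6 ovalbumin arrays. Ncr1, which encodes the NK receptor NKp46, had 6.79, 6.40 and 6.24 in A/J resiquimod arrays, against 3.77, 3.91 and 3.96 in A/J ovalbumin arrays, a difference of 2.60 ± 0.14 (adjusted p = 1.20e-08). In C57BL/6 the difference of Ncr1 was 2.36 ± 0.14 (adjusted p = 2.09e-08). Fcer1g and Tyrobp are among these markers, but macrophages also express both. The part of NK cell number in the granule gene changes was not tested.

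The order of single arrays was shared as well. A/J resiquimod replicate 3 was the lowest of its group in 5 of 6 granule genes and in 6 of 7 NK markers, and replicate 2 was the highest in 5 of 6 and 5 of 7. C57BL/6 resiquimod replicate 2 was the lowest of its group in 6 of 6 granule genes and 6 of 7 NK markers. The NK markers differed in part between the strains in resiquimod arrays, where 5 of 7 were lower in A/J: Klre1 by -2.06 ± 0.14, Klrk1 by -1.89 ± 0.15, Klrd1 by -1.71 ± 0.16, Fcer1g by -0.63 ± 0.12 and Tyrobp by -0.59 ± 0.12. Ncr1 (0.36 ± 0.14, adjusted p = 0.113) and Klrc1 (0.04 ± 0.13, adjusted p = 0.912) were not called. Part of this strain difference was present without resiquimod. Klrd1 and Klrk1 were also called lower in A/J with PBS (-1.23 ± 0.16 and -0.62 ± 0.15) and with ovalbumin (-1.77 ± 0.16 and -0.53 ± 0.15). Klre1 (-0.51 ± 0.14) and Fcer1g (-0.46 ± 0.12) were called lower with PBS but not with ovalbumin. Tyrobp, Ncr1 and Klrc1 were called with neither PBS nor ovalbumin.

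Markers of T cells moved less, and in A/J none was called higher than with ovalbumin. Of the 5 measured (of 6 listed), 0 were higher and 1, Cd3e, was lower in A/J (-0.30 ± 0.08, adjusted p = 0.0379), and 2 were higher in C57BL/6, the signalling chain gene Cd247 (0.72 ± 0.10, adjusted p = 0.000275) and Cd2 (1.28 ± 0.13, adjusted p = 1.22e-05), both of which NK cells also express. Their mean level was 5.82 to 6.08 in A/J resiquimod and 5.85 to 6.21 in A/J ovalbumin arrays, and 6.32 to 6.52 in C57BL/6 resiquimod and 5.77 to 5.92 in C57BL/6 ovalbumin arrays. Cd8b1, which encodes a chain of the CD8 coreceptor, had 3.97, 4.03 and 3.49 in A/J resiquimod arrays, against 4.47, 4.21 and 4.09 in A/J ovalbumin arrays (-0.43 ± 0.15, adjusted p = 0.101), and 5.13, 4.70 and 5.18 in C57BL/6 resiquimod arrays, against 4.29, 4.19 and 4.40 in C57BL/6 ovalbumin arrays (0.71 ± 0.15, adjusted p = 0.00569). The difference of the 2 resiquimod effects of Cd8b1 was -1.14 ± 0.21 (A/J minus C57BL/6, adjusted p = 0.0189). The C57BL/6 resiquimod array with the lowest Cd8b1, replicate 2, was also the lowest for Gzmk. This is not particular to Gzmk, since that array was the lowest in 6 of 6 granule genes and 6 of 7 NK markers. Cd8a was called in neither strain (-0.11 ± 0.13 in A/J and 0.21 ± 0.13 in C57BL/6), nor was Cd4 (-0.26 ± 0.10 and -0.03 ± 0.10).

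**Figure D4:**
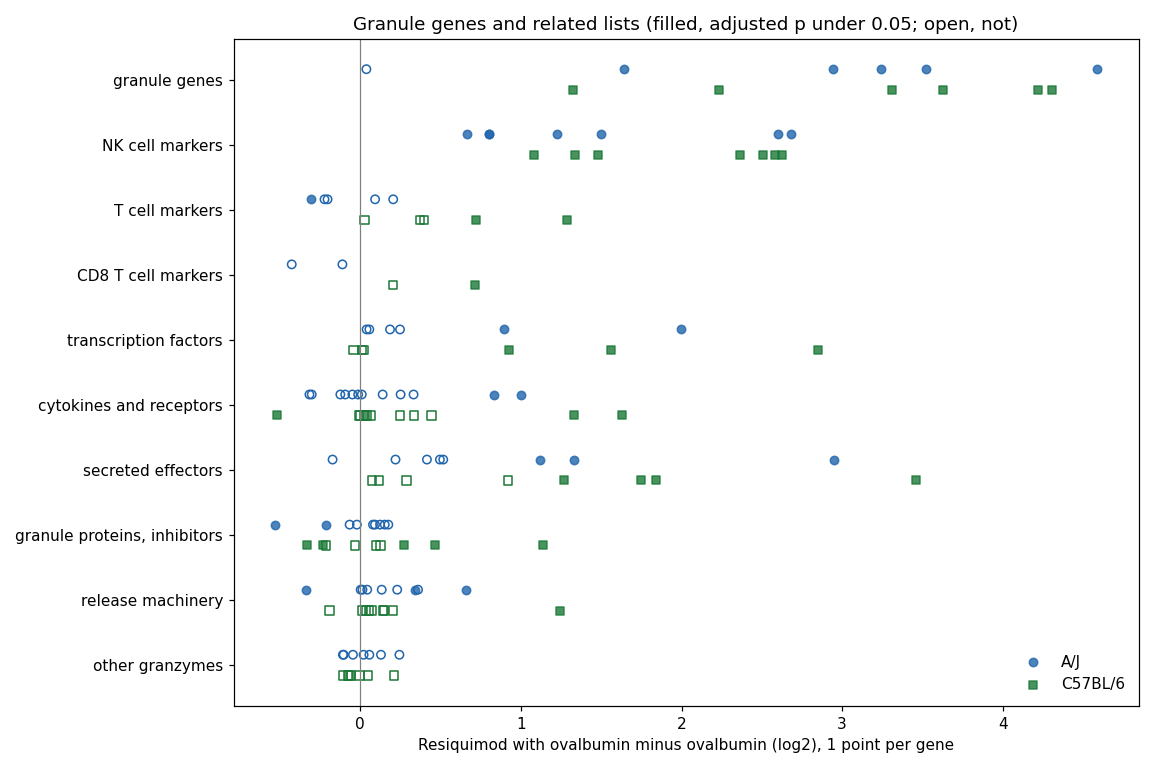
Differences between resiquimod with ovalbumin and ovalbumin (log2, horizontal axis) for the 6 granule genes and the genes of 9 lists, 1 symbol per gene, circles for A/J and squares for C57BL/6. Filled symbols have an adjusted p under 0.05. All 7 NK markers are filled in both strains, none of the 7 other granzymes is, and the granule genes reach farthest to the right, at 4.59.

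Among regulators known to drive granule genes, the T-box factor genes rose. Tbx21, which encodes T-bet, had 5.55, 5.66 and 5.05 in A/J resiquimod arrays, against 3.54, 3.14 and 3.60 in A/J ovalbumin arrays, without overlap (2.00 ± 0.16, adjusted p = 9.61e-07), and differed by 2.85 ± 0.16 in C57BL/6 (adjusted p = 1.53e-08). Eomes was higher by 0.90 ± 0.15 in A/J and 1.56 ± 0.15 in C57BL/6, and Runx3 was called in C57BL/6 (0.93 ± 0.15, adjusted p = 0.000608). In all 2 of 6 measured factors were called higher in A/J (1 of 6 without the squamous arrays) and 3 of 6 in C57BL/6, while Prdm1 (0.04 ± 0.16 and 0.02 ± 0.16) and Id2 (0.19 ± 0.10 and -0.04 ± 0.10) were called in neither. Of 12 measured cytokines and receptors that induce granule genes, the receptor chain genes Il2rb (1.00 ± 0.10 in A/J, 1.63 ± 0.10 in C57BL/6) and Il18rap (0.84 ± 0.08 and 1.33 ± 0.08) were higher in both strains, and Il2ra was lower in C57BL/6 (-0.52 ± 0.15). The cytokine genes Il15 (-0.30 ± 0.16 and 0.03 ± 0.16), Il12a (0.14 ± 0.15 and 0.00 ± 0.15) and Il12b (-0.01 ± 0.08 and 0.03 ± 0.08) were called in neither.

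Of 8 genes for other products of cytotoxic cells, 3 were called higher in A/J and 4 in C57BL/6 (1 and 2 without the squamous arrays). The chemokine gene Ccl5 was higher by 2.95 ± 0.15 in A/J and 3.46 ± 0.15 in C57BL/6, Ccl3 by 1.33 ± 0.31 and 1.75 ± 0.31, and the death ligand gene Fasl by 1.12 ± 0.22 and 1.84 ± 0.22. Ccl4 was called in C57BL/6 (1.27 ± 0.24), and in A/J it differed by 0.52 ± 0.24 (adjusted p = 0.248). Ifng, which encodes interferon gamma, differed by 0.50 ± 0.28 in A/J (adjusted p = 0.360) and by 0.92 ± 0.28 in C57BL/6 (adjusted p = 0.0540). Tnf (0.42 ± 0.24 in A/J and 0.07 ± 0.24 in C57BL/6), Xcl1 (0.22 ± 0.09 and 0.12 ± 0.09) and Tnfsf10 (-0.17 ± 0.13 and 0.29 ± 0.13) were called in neither.

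Among the values given here, genes for the rest of the granule differed by less than the members called higher. Over the groups the granule protein list averaged 9.88 to 10.17 and the release list 8.15 to 8.38. How much of this came from cytotoxic cells was not measured, so a difference within them may go undetected. Of 9 measured granule proteins, processing enzymes and inhibitors, 0 were higher and 2 were lower in A/J, Lamp2 (-0.22 ± 0.06, but 0.02 as the mean of all its probe sets) and Calr (-0.53 ± 0.09). In C57BL/6, 3 were higher and 2 lower: the proteoglycan gene Srgn by 0.46 ± 0.07, Ctsc, whose product removes the propeptide of granzymes, by 0.27 ± 0.06, and Cst7, a cathepsin inhibitor gene, by 1.14 ± 0.17, with Lamp2 at -0.23 ± 0.06 and Calr at -0.33 ± 0.09. Serpinb9, which encodes the inhibitor of granzyme B, differed by -0.02 ± 0.08 in A/J and 0.10 ± 0.08 in C57BL/6 and was not called. Of 9 genes of granule release, Coro1a was higher in both strains (0.66 ± 0.19 and 1.24 ± 0.19), Vamp8 was higher (0.34 ± 0.07) and Vamp7 lower (-0.34 ± 0.08) in A/J, and Unc13d, which encodes a protein that primes granules for fusion, was called in neither (0.04 ± 0.13 and 0.05 ± 0.13). Without the squamous arrays none of these 18 genes was called in A/J, and 3 were called higher in C57BL/6.

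Among further cell types, macrophage markers were called higher with resiquimod in 3 of 5 in A/J and 5 of 5 in C57BL/6. For these lists and those above, set against ovalbumin, 4.38% of all genes were called higher in A/J and 5.8% in C57BL/6. The shares called lower were 5.39% and 4.6%. Neutrophil markers were called higher in 3 and 4 of 5. The neutrophil calls were lost in both strains without the squamous arrays, where calls over all genes also fell. B cell markers were called in 0 of 3 in A/J, where 2 had an unadjusted p under 0.05 in limma, and in 3 of 3 in C57BL/6. Of 6 plasmacytoid dendritic cell markers, Irf7 was called higher in A/J (1.19 ± 0.12) and Irf7 and Bst2 in C57BL/6 (1.10 ± 0.12 and 0.45 ± 0.08), while Siglech (-0.23 ± 0.13 and -0.04 ± 0.13) was called in neither. Of 9 mast cell and basophil markers, which include other granule proteases, 0 were called in either strain, with 3 in A/J and 2 in C57BL/6 at an unadjusted p under 0.05. The mean macrophage marker level was 8.92 to 9.21 in A/J resiquimod and 8.08 to 8.29 in A/J ovalbumin arrays, and 8.68 to 8.80 in C57BL/6 resiquimod and 7.34 to 7.66 in C57BL/6 ovalbumin arrays. Their part in the granule gene changes was not tested.

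The genes most like the granule genes were sought by the root mean square difference, over the 18 arrays, between a gene's centred log2 values and the mean of the 6 members, which ranged from 0.14 for Nkg7 to 1.08 for Gzmk among the members and had a median of 1.43 over 18187 other genes. Ccl5 came closest (0.16), followed by Fcgr4, an Fc receptor gene (0.22), Tbx21 (0.32), Gimap7 (0.37), the NK and T cell receptor gene Klrg1 (0.43), Klrd1 (0.50), Klrk1 (0.52), Stfa2l1 (0.54), Ms4a4b (0.55) and Treml4 (0.57). All 10 were called higher with resiquimod in both strains, which the choice by likeness to this pattern fixes. Ccl5 had 9.81, 9.86 and 9.48 in A/J resiquimod arrays, against 7.03, 6.68 and 6.59 in A/J ovalbumin arrays, and 10.99, 10.64 and 10.87 in C57BL/6 resiquimod arrays, against 7.39, 7.25 and 7.47 in C57BL/6 ovalbumin arrays. The same arrays were lowest for Ccl5 as for most members among the resiquimod arrays.

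**Figure D5:**
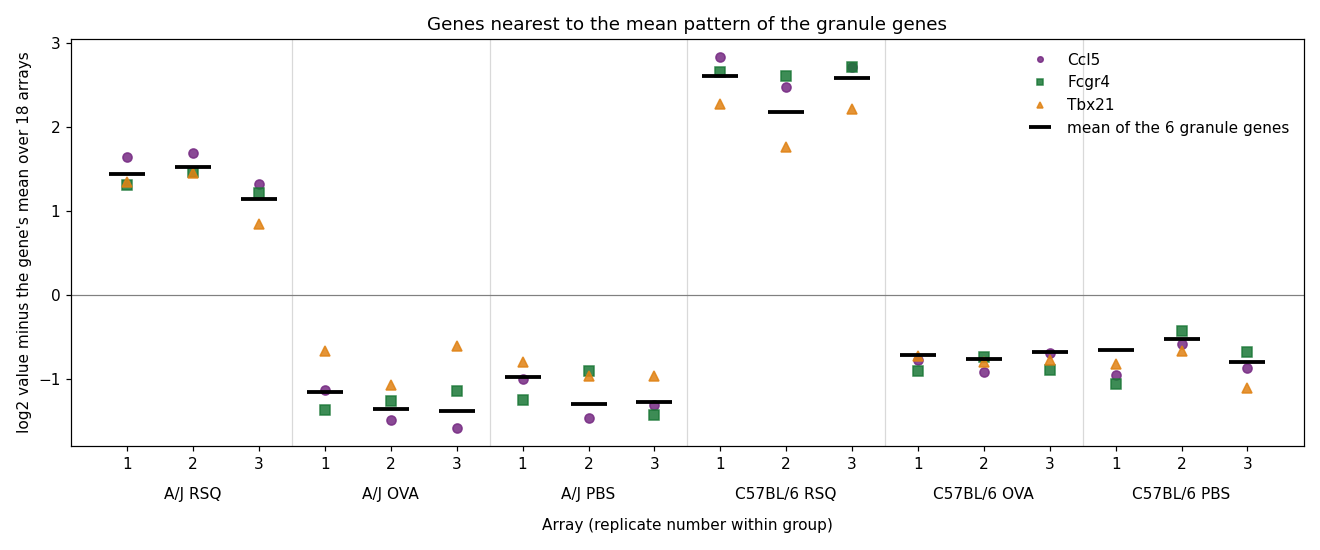
Values of Ccl5, Fcgr4 and Tbx21 in each of the 18 arrays, centred on each gene's mean (log2), with the mean of the 6 granule genes as a bar. In the A/J resiquimod arrays the bar lies between 1.14 and 1.53, in the C57BL/6 resiquimod arrays between 2.19 and 2.61, and in all other arrays at -0.52 or lower, with Ccl5 near it throughout.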

How the data were processed

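RNA of 18 whole lungs was hybridised to Affymetrix Mouse 430 2.0 arrays, 3 per group, each labelled a biological replicate; where these are not separate animals, p-values measure only the spread between arrays. The deposited values are log2 expression values that the authors made with RMA in the affy package, per the submitters' processing notes; no version is given in the sources used here. RMA sets the arrays' distributions nearly equal (medians 4.77 to 4.80), and the number of arrays limits the precision. No 2 arrays were identical.

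Of 45101 probe sets, 64 controls were left out and 45037 were tested. The platform annotation gave 34945 of these 1 gene, 932 several and 9160 none, and 34741 were found in RefSeq, for 18193 genes. A gene is represented by its single-gene probe set with the highest mean over all arrays. limma 3.58.1 in R 4.3.3 was fitted to all 6 groups, with p-values adjusted by Benjamini-Hochberg over all probe sets, and was tested on simulated data. Arrays were called squamous where Krt13, Krt4 and Krtdap exceeded 7. The members, 17 lists of 120 genes (110 measured) and the naming rule (all members, then called list genes and the 10 genes most like the members) were chosen with earlier results of these data known. List genes not called were named after their values were seen. Alternatives were other scalings, filters and variance models, a replicate block, leaving out each array or the squamous arrays, and, chosen after seeing the data, leaving out the C57BL/6 PBS arrays.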

Additional observations from a re-analysis of the deposited data

Results flagged for a closer look

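The estimated effect of resiquimod on Gzmk differed between the strains in the test of the difference: -1.29 ± 0.28 on the log2 scale (A/J minus C57BL/6, limma, adjusted p = 0.0402). Gzmk differed between resiquimod and ovalbumin arrays by 0.04 ± 0.20 in A/J and by 1.33 ± 0.20 in C57BL/6. All A/J values of Gzmk lay between 3.06 and 3.44, at the dim end of the arrays, where a difference may go undetected. Hybridisation of A/J transcripts to its probes was not tested. The call was marginal: it was lost in 16 of 18 fits without 1 array, and also without the squamous arrays (adjusted p = 0.0778), without the C57BL/6 PBS arrays (adjusted p = 0.0711), with array weights and with only the arrays compared. The cause was not tested.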

How the results depend on the processing

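The member counts for resiquimod against ovalbumin, resiquimod against PBS and A/J against C57BL/6 under resiquimod were the same under every alternative run. For ovalbumin against PBS in A/J the count of 1 became 0 with only the arrays compared, the 75th percentiles set equal, cyclic loess, no squamous arrays or no C57BL/6 PBS arrays, and was 0 to 1 with 1 array left out. For A/J against C57BL/6 with PBS it became 2 with cyclic loess, a trended robust variance or array weights, and was 1 to 2 with 1 array left out; with ovalbumin it became 1 without the squamous arrays. For the strain difference in the resiquimod effect the count of 1 became 0 with only the arrays compared, array weights, no squamous arrays or no C57BL/6 PBS arrays, and was 0 to 1 with 1 array left out. The causes were not tested. With the replicate number as a block, the count for ovalbumin against PBS in A/J was 0 (Gzma, adjusted p = 0.0546) and no other member count changed. Correlations of same-numbered arrays were all over 0.1 in 1 of 9 pairs of groups, A/J resiquimod and A/J PBS (0.157 to 0.502). They ran from -0.585 to 0.490 in the others. The labels link same-numbered arrays by number alone, and whether they share more was not tested.

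Signs turned for Nkg7 in ovalbumin against PBS in C57BL/6 (0.008 with array weights), for the strain difference in the ovalbumin effect of Nkg7 (0.034) and Ctsw (-0.23) without the squamous arrays, and for Lamp2 under resiquimod in A/J (0.0175 as the mean of its probe sets). With 1 array left out, ranges that crossed 0 were, for ovalbumin against PBS, -0.33 to 0.0388 for Prf1 and -0.0068 to 0.21 for Ctsw in A/J, and -0.20 to 0.12 for Gzmb, -0.0532 to 0.0566 for Nkg7 and -0.0296 to 0.20 for Ctsw in C57BL/6; -0.0222 to 0.15 for Gzmk under resiquimod in A/J; -0.28 to 0.0654 for Prf1 between the strains with ovalbumin; and -0.0447 to 0.32 for Prf1 and -0.0828 to 0.16 for Ctsw in the strain difference in the ovalbumin effect.

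Counts over all genes moved more, and were lowest without the squamous arrays. For resiquimod against ovalbumin they were 1777 (342 to 2040) in A/J and 1891 (825 to 2176) in C57BL/6, for ovalbumin against PBS 797 (79 to 1078) and 290 (93 to 391), and for resiquimod against PBS 2025 (877 to 2315) and 3052 (790 to 3540). Between the strains they were 1640 (565 to 2096) with PBS, 1686 (522 to 1820) with ovalbumin and 2994 (1896 to 3248) with resiquimod, and for the strain differences in effect 11 (0 to 18) for ovalbumin and 225 (5 to 432) for resiquimod. With 1 array left out, ovalbumin against PBS ranged from 409 to 853 in A/J and from 165 to 319 in C57BL/6, resiquimod against PBS in A/J from 1341 to 2023, and the strain difference in the resiquimod effect from 83 to 357.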
